A study of Mus musculus with 92 samples.

Results

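Livers of male HET3 mice fed the Control diet were compared at 24 and at 6 months of age. HET3 mice are bred by crossing several inbred strains, so that each animal carries its own mix of alleles, and no transgene or deletion is given in the labels. The comparison covers 15 of the 92 libraries of the series, chosen by the sex, diet and age in their sample titles: 7 male controls aged 24 months and 8 male controls aged 6 months. Whether all 15 entered the authors' estimate is not stated. Per the labels, the Control diet began at 6 months in the older animals and at 9 weeks in the younger ones, while the series text gives 13 weeks on diet for all, so the time on diet is uncertain. All livers were taken after an overnight fast and frozen, and poly(A)-selected RNA was sequenced from whole tissue. Males on a diet reduced in every amino acid (Low Amino Acid), males on a diet reduced in isoleucine alone (Low Isoleucine) and female controls enter below only where the age effect is set beside theirs.

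The cells of the male columns in the deposited gene table could not be assigned to genes. Across 12145 genes, the age fold change computed from those columns had r = -0.01 with the deposited male fold change, against r = 0.95 across 11952 genes for the female columns. The depth of each male library and the level of each gene in each animal are therefore not known here. Every male log2 fold change below is the authors' estimate in their deposited table of male comparisons, which lists 17757 genes, and carries no spread between animals of its own. A standard error (SE) was recovered for each fold change from its deposited p. Positive values mean higher at 24 months, and 1 on the log2 scale is a 2-fold change. This direction was read from the female table, whose columns are named in the same way and could be checked against counts.

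As background, the liver makes most plasma proteins, among them the acute phase proteins, whose genes are switched on in hepatocytes by interleukin-6 through STAT3 and by C/EBP factors. It also burns fatty acids and makes ketone bodies during fasting under the nuclear receptor PPARalpha, and synthesises bile acids from cholesterol. Male mice secrete growth hormone in separated pulses, which through STAT5b sustain a male pattern of liver genes, such as those of the major urinary proteins (MUPs), carriers of volatile scents excreted in urine. In ageing liver, immune cells are known to accumulate and pulsatile growth hormone secretion to wane.

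Age was accompanied by broad but mostly small differences. Of 17757 genes in the authors' deposited table, 1480 were higher at 24 months and 2071 were lower at an adjusted p under 0.05, which is 8.33% and 11.7% of all genes. These shares are the background against which the gene lists below are read. The median fold change over all genes was 0.00 on the log2 scale, that of the genes called higher was 0.48, and that of the genes called lower was -0.57. Among called genes, 329 rose by at least 1 and 368 fell by at least 1 on the log2 scale. The median SE was 0.174, which gives a 95% interval of 0.352 to either side of a typical fold change. Before adjustment 6006 genes had p under 0.05. Genes nearest the threshold had adjusted p of 0.04998 on the inside and 0.05006 on the outside. In female controls the matching shares were 12.4% higher and 11.1% lower, and among males on Low Isoleucine 3.01% and 4.07%. The difference in age effect, males minus females, passed as higher for 3.67% and as lower for 5.47% of genes. Control minus Low Isoleucine did so for 3.62% and 7.02%, and Control minus Low Amino Acid for 2.9% and 6.58%.

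The direction of the calls moved with base composition. In the decile of genes whose longest transcript was poorest in G and C (28.7% to 40.4%), 17.5% of 1770 genes were higher at 24 months and 2.26% were lower in the authors' deposited table. In the decile richest in G and C (57.0% to 69.4%), 1.30% were higher and 37.3% were lower. Over 13656 protein-coding genes, Spearman's rho between GC content and the age fold change was -0.396. The same measure was -0.604 for Low Amino Acid and -0.581 for Low Isoleucine against Control at 6 months, comparisons that share the 6-month male controls with the age comparison. It was -0.0448 and -0.146 for the same diets at 24 months, 0.230 for age among males on Low Isoleucine and 0.181 for age among female controls. Genes are not independent points, and what these libraries share beyond the controls is not known here. Each result below was therefore also computed after subtracting from each fold change the median of genes with the same GC content, a choice made after seeing the data. With that centring 976 genes (5.5%) were higher and 1221 (6.88%) were lower, and 1786 genes were called in the same direction both ways. The part of GC content in any single result was not tested.

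**Figure D1:**
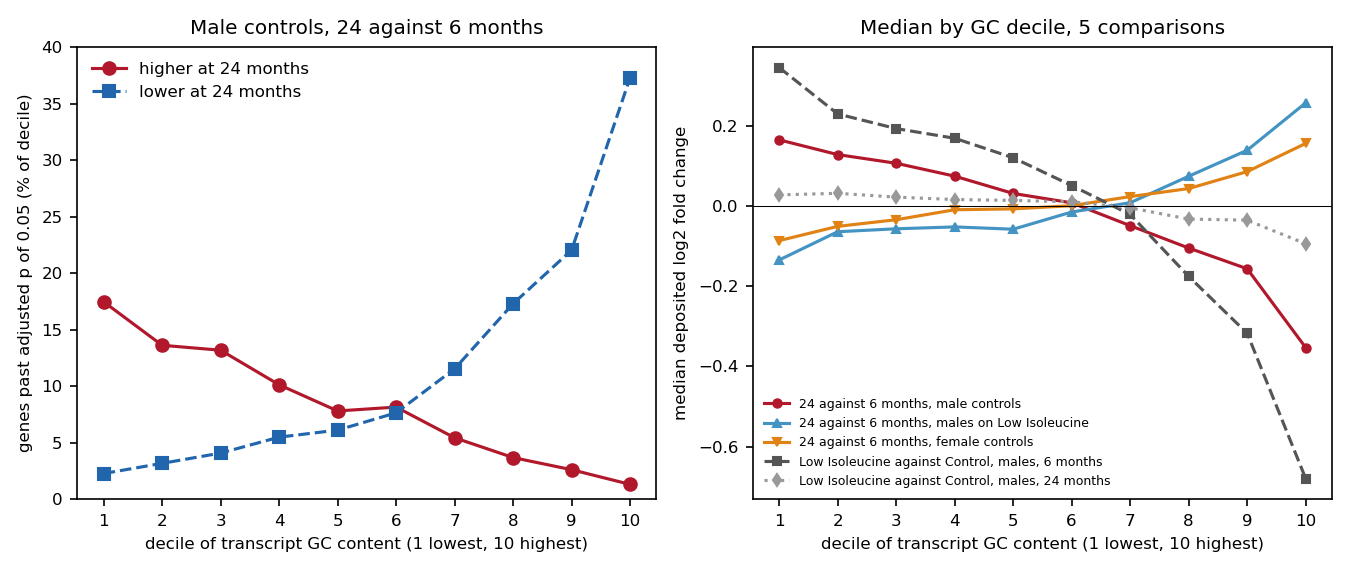
Left, the share of genes in each decile of GC content (x axis) that were higher (circles) or lower (squares) at 24 months in male controls, in percent. Right, the median deposited log2 fold change per decile for 5 comparisons. The share lower at 24 months reached 37.3% in the richest decile, against 2.26% in the poorest, and the lines of the comparisons that use the 6-month male controls slope downward.

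Acute phase genes were higher at 24 months. Of the 30 genes of an acute phase list, 13 rose and none fell in the authors' deposited table, with a list median of 1.13. The increase was largest for Lcn2 (lipocalin 2, an iron-siderophore binding protein released by hepatocytes and neutrophils), at 5.06 with an SE of 1.36 and an adjusted p of 0.00838. The genes of the 3 chains of fibrinogen, the clot-forming plasma protein, lie next to each other on chromosome 3 and moved by nearly the same amount. Fga was higher by 1.31 (SE 0.26), Fgg by 1.29 (SE 0.25) and Fgb by 1.28 (SE 0.24), with adjusted p of 0.00061, 0.000437 and 0.000363. Apcs, which encodes serum amyloid P, a pentraxin that is a main acute phase reactant in mice, rose by 2.03. Stat3, the transcription factor that carries the interleukin-6 signal, rose by 0.79. Other members that passed were Orm1 (1.40), Serpina3n (1.28), Itih3 (1.26), Lbp (1.19), Itih4 (1.07), Steap4 (0.94) and Cp (0.79), most of them secreted plasma proteins. Orm1 and Serpina3n have near-identical relatives, so their reads may be split or shared. Saa2, a serum amyloid A gene, had 2.59 with an SE of 1.36 and did not pass at an adjusted p of 0.174.

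After GC centring 12 of the 30 acute phase genes rose, Orm1 being lost at an adjusted p of 0.051. In female controls, 23 of the 30 rose with age and the list median was 1.34. Among males on Low Isoleucine, none rose, 1 fell and the median was 0.22. In that diet group the age fold changes were 0.61 for Lcn2, 0.18 for Fga, 0.29 for Fgb and 0.19 for Fgg. Among males on Low Amino Acid the list median was 0.55, and the age fold changes were 3.94 for Lcn2, 0.54 for Fga, 0.59 for Fgb and 0.55 for Fgg. The difference Control minus Low Amino Acid passed for no member of the list, that of Lcn2 being 1.12 ± 1.95 (SE, adjusted p 0.791). The difference in age effect, Control minus Low Isoleucine, passed as higher for 4 of the 30 genes, against 3.62% of all genes. It passed as lower for none, against 7.02% of all genes. Among the 4 were Fgg (1.10 ± 0.38 SE) and Stat3 (0.85 ± 0.25), with adjusted p of 0.0458 and 0.021. The differences for Lcn2 (4.45 ± 1.87), Fga (1.13 ± 0.39) and Fgb (0.99 ± 0.36) did not pass, at adjusted p of 0.111, 0.0516 and 0.0653. With GC centring only Stat3 of these 5 differed, at an adjusted p of 0.0261.

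The 250 bases before the annotated start of Lcn2, Fga and Fgb are printed because Lcn2 rose most in the list and the fibrinogen genes are classical targets of the factors named above. They are RefSeq promoter sequences on GRCm38.p6, read 5′ to 3′ on the gene's strand, at chr2:32387740-32387989 (minus strand) for Lcn2, chr3:83025903-83026152 (plus strand) for Fga and chr3:83049864-83050113 (minus strand) for Fgb. Capitals mark matches on either strand to TTCNNNGAA, a STAT motif, and TTGCNNAA, a C/EBP motif.
Lcn2: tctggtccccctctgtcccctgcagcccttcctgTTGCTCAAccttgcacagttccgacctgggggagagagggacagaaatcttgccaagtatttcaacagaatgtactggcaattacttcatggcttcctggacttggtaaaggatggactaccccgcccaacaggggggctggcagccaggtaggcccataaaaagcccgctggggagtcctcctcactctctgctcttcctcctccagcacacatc
Fga: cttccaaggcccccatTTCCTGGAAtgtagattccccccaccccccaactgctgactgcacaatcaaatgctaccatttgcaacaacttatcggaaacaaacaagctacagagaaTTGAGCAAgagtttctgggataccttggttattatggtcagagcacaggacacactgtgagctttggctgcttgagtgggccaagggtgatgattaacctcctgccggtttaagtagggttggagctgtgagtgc
Fgb: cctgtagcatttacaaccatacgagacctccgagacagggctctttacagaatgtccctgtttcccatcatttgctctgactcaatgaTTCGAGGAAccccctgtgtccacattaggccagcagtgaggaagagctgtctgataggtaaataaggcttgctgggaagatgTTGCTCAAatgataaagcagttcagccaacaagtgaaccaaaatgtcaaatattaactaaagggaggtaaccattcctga
The C/EBP letters of Lcn2 began at -216, counted from the start. In Fga the STAT letters began at -234 and the C/EBP letters at -135, and in Fgb at -162 and -80. No stretch of bases was shared by matches of both motifs. Among 32851 windows of 250 bases before RefSeq starts, 7.02% held the STAT letters and 9.56% held the C/EBP letters. A match describes letters only, and no binding was measured.

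Markers of macrophages and of antibody-producing cells were higher at 24 months, while T cell markers did not pass the test. In whole tissue, more cells of a type and more RNA per cell cannot be told apart. Of 30 Kupffer cell and macrophage genes, 11 rose and none fell in the authors' deposited table, with a median of 1.14. They included Lyz2, which encodes lysozyme (1.55, SE 0.38), Cd9, a tetraspanin (1.36, SE 0.21), Adgre1, a surface receptor used to mark mouse macrophages (1.20, SE 0.36), Vsig4, a complement receptor of Kupffer cells (1.05, SE 0.31), and the colony stimulating factor receptor Csf1r (0.79). Of 28 B and plasma cell genes 6 rose, all of them constant regions or partners of antibodies: Ighg3 (3.89), Igkc (3.53), Ighg2b (3.23), Ighm (2.89), Igha (2.53) and Jchain (2.48). Immunoglobulin constant genes resemble each other, and their counts are uncertain. Cd8a, the co-receptor of cytotoxic T cells, stood at 1.78 with an SE of 0.97 (adjusted p 0.192). None of 25 T and NK cell genes and none of 10 MHC class II genes passed, although 23 of the 25 and all 10 had positive fold changes, with medians of 0.90 and 1.25.

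Among 10 neutrophil genes Lcn2 and Csf3r, the granulocyte growth factor receptor (1.42, SE 0.40), rose. S100a8 and S100a9, which encode the calprotectin subunits, had 3.32 (SE 1.48) and 2.62 (SE 1.14) and did not pass, at adjusted p of 0.108 and 0.101. Of 25 chemokines, cytokines and receptors 7 rose and none fell. Those that rose included Cxcl14 (2.84), the neutrophil attractant Cxcl1 (2.09), Cxcr4 (1.83), Ccl6 (1.34), the alarmin Il33 (0.99) and Cxcl16 (0.82). After GC centring 4 of the 25 rose. Interferon response genes did not share this direction, since 1 of 41 fell, Bst2 at -0.70, and none rose, with a median of 0.09. With GC centring Bst2 was lost at an adjusted p of 0.098.

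These immune lists had age medians of 0.41 (macrophage), 1.02 (B and plasma cell), 0.57 (T and NK cell) and 0.26 (neutrophil) among males on Low Isoleucine, where no member passed. The medians of the age effect among males on Low Amino Acid, summed from deposited contrasts, were 1.34, 2.21, 1.61 and 2.21 for the same lists. In female controls 21 of 30 macrophage, 22 of 27 B and plasma cell, 8 of 21 T and NK cell and 8 of 8 neutrophil genes rose with age. The difference between the age effect of males and that of females passed for 1 gene of these 4 lists, in the T and NK cell list, and the difference between Control and Low Isoleucine passed for none.

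**Figure D2:**
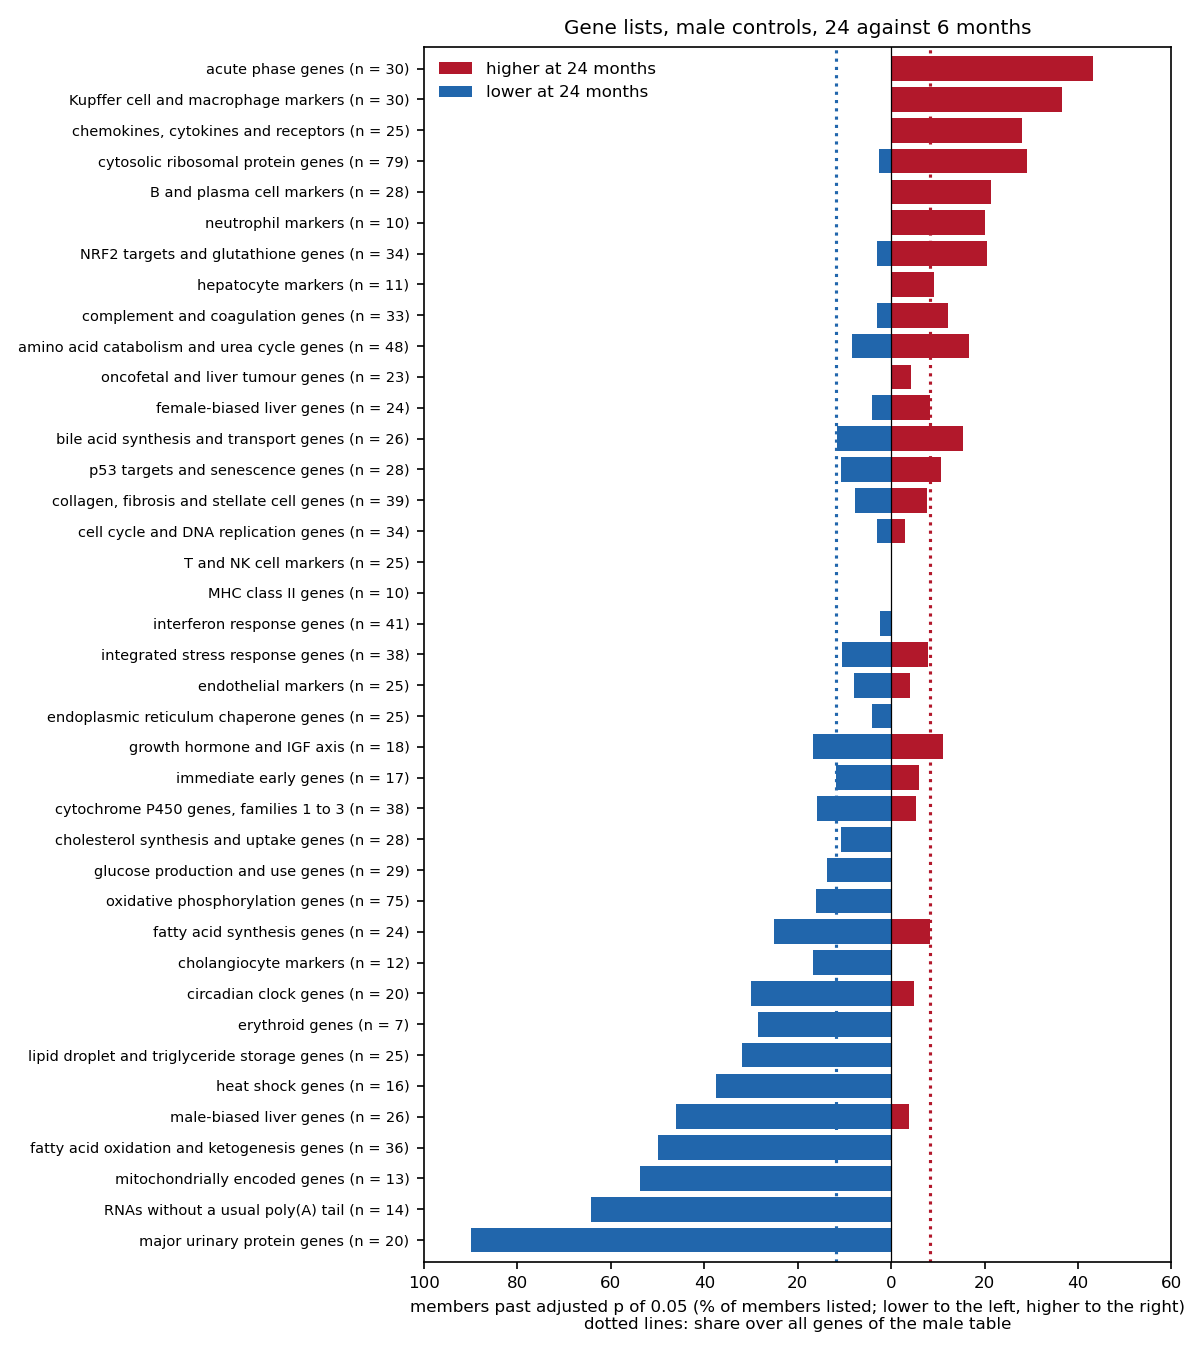
Gene lists of at least 7 measured members in male controls. Bars to the right give the percentage of members higher at 24 months and bars to the left the percentage lower, at an adjusted p under 0.05, and dotted lines mark the shares over all genes (8.33% higher, 11.7% lower). The acute phase and macrophage lists stand farthest to the right, and the major urinary protein list, with 18 of 20 members lower, stands farthest to the left.

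Genes of the major urinary proteins showed the largest decreases. In the authors' deposited table, 18 of 20 Mup genes fell, none rose, and all 20 had negative fold changes, with a median of -2.71. The decrease was -7.10 for Mup15 (SE 1.90, adjusted p 0.00806), -5.75 for Mup18, -5.23 for Mup12, -4.69 for Mup11 and -4.55 for Mup17 (SE 1.40). Mup21 fell by 2.97 with an SE of 0.80. Mup20, which encodes darcin, the male scent protein attractive to females, fell by 2.94. Mup2 (-0.72, SE 0.62) and Mup19 (-3.26, SE 1.37) did not pass, at adjusted p of 0.431 and 0.0864. Mup genes lie in a tandem array on chromosome 4 and are near-identical copies, so reads may be split among them and the order of single members is uncertain. With GC centring 17 of the 20 fell.

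Windows before the annotated starts of these genes ranged between nearly identical and clearly different. Windows of 250 bases before the start are printed for a close pair, Mup15 and Mup17, and for Mup21, whose window matched less. They are on GRCm38.p6 from RefSeq and all on the minus strand: chr4:61439705-61439954 for Mup15, chr4:61595833-61596082 for Mup17 and chr4:62150842-62151091 for Mup21. None holds the STAT or C/EBP letters searched above, which says only that these letters are not in these windows.
Mup15: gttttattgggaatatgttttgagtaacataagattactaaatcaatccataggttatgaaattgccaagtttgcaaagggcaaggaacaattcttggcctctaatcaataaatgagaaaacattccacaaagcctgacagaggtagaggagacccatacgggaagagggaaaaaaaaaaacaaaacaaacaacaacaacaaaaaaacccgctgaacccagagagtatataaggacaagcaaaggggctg
Mup17: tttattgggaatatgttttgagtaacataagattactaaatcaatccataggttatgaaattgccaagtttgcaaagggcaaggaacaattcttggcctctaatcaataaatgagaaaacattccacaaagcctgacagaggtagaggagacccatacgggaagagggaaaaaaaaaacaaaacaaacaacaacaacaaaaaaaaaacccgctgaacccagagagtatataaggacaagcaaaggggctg
Mup21: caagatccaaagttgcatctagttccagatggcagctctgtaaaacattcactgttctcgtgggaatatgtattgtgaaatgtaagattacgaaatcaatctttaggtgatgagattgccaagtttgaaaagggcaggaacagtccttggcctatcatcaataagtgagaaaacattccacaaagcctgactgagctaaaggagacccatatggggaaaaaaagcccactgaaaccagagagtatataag
The aligned windows of Mup15 and Mup17 were identical at 97.6% of positions, and those of Mup15 and Mup21 at 57.4%. The window of Mup21 ends at the letters gtatataag, whereas those of Mup15 and Mup17 run on past the same letters. Identity between windows therefore mixes differences in sequence with the placement of the annotated starts, and these were not separated. Over the 66 pairs of 12 Mup genes with a window, identity ranged between 31.1% and 97.6% with a median of 68.8%.

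Among males on Low Isoleucine no Mup gene passed the age test, and the list median was 0.05. On Low Amino Acid the median was -0.51. The difference in age effect, Control minus Low Isoleucine, passed for 1 Mup gene, Mup8 (-3.10 ± 1.04 SE, adjusted p 0.0413), and for none with GC centring. For Mup15 that difference was -6.27 ± 2.75 with an adjusted p of 0.13, so the intervals are too wide to separate most members. In female controls 18 of 19 Mup genes fell, with a median of -6.34. The fall was smaller in males for 6 genes, among them Mup10 (males minus females 5.13) and Mup1 (6.12), at adjusted p of 0.000437 and 0.00109, and 5 of the 6 kept this call with GC centring. Low Isoleucine against Control at 6 months had a list median of -1.21 and Low Amino Acid -0.39. Those comparisons share the 6-month controls with the age comparison.

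**Figure D3:**
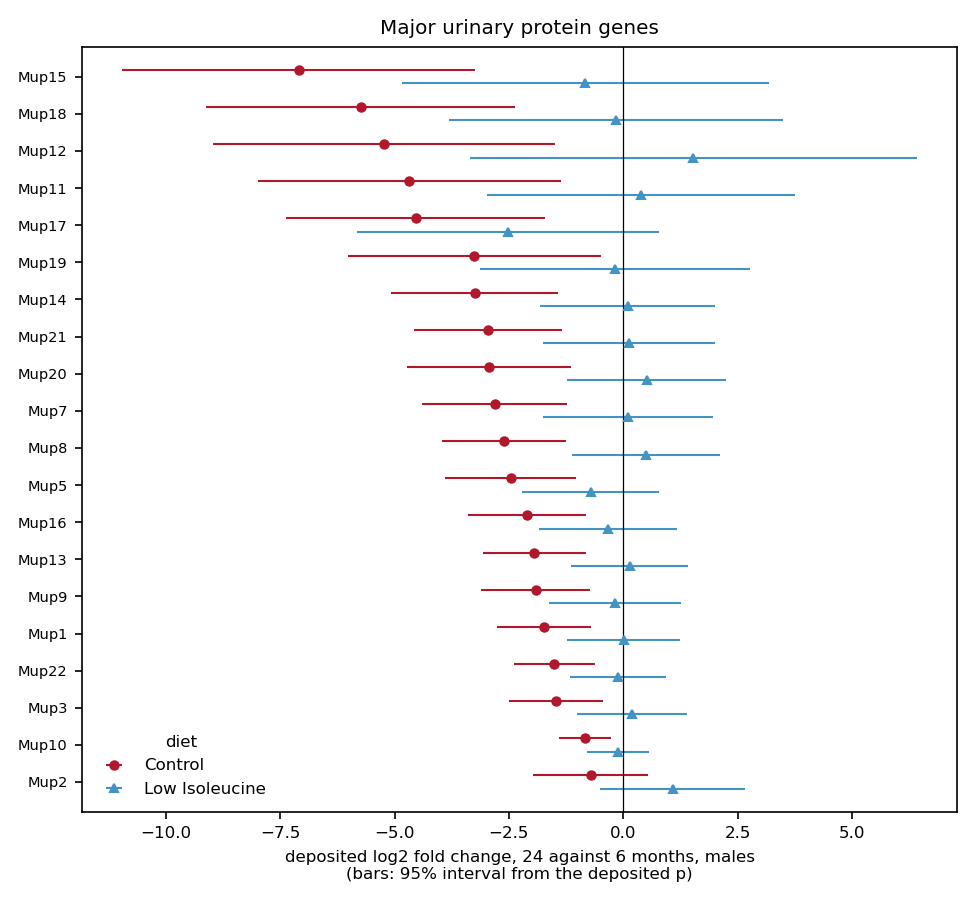
Deposited log2 fold change of each Mup gene, 24 against 6 months, in males on Control (circles) and on Low Isoleucine (triangles), with 95% intervals recovered from the deposited p. All 20 Control points lie below 0, from -7.10 for Mup15 to -0.72 for Mup2, and all Low Isoleucine intervals cross 0.

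Other genes with male-biased expression in mouse liver fell as well. Of 26 such genes in the authors' deposited table, 12 fell, 1 rose, and the median was -0.80. Ugt2b38, a glucuronosyltransferase, fell by 3.4 (SE 0.73, adjusted p 0.00139). Hsd3b5, a steroid-reducing enzyme of male liver, fell by 2.79 (SE 0.84), and Cyp4a12b, an arachidonic acid hydroxylase of male liver and kidney, fell by 2.53 (SE 0.41, adjusted p 7.33e-05). Slco1a1, an organic anion carrier, fell by 1.87 and Cyp2d9, a testosterone hydroxylase, by 1.13. Cyp4a12b and Cyp2d9 have close relatives and their counts are uncertain. The exception was Dhrs9, a retinol and steroid dehydrogenase, at 1.90. With GC centring 11 fell and none rose. In female controls 7 of 21 of these genes fell with age and 2 rose, with a median of -0.23. The male effect lay below the female effect for 2 genes and above it for none, or for 1 gene with GC centring. The median of the list was 0.29 for age among males on Low Isoleucine, where no member passed, and the difference Control minus Low Isoleucine passed for 6 members, all lower, including Cyp4a12b (-2.59 ± 0.76 SE) and Cyp2d9 (-1.23 ± 0.37), and for 4 with GC centring. In 6-month males the list medians were -0.87 for Low Amino Acid and -1.27 for Low Isoleucine against the same 6-month controls.

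Of 24 genes with female-biased expression, 2 rose (8.33%, as over all genes) and 1 fell (4.17%, against 11.7%), with a median of 0.69. Cyp17a1, the steroid 17-hydroxylase, was higher by 2.23 (SE 0.55, adjusted p 0.00404) in males aged 24 months, whereas it was lower by 1.35 in aged females. The difference, 3.58 ± 0.68 (SE), passed at an adjusted p of 0.000524. A1bg rose by 1.72 and Acot4, a peroxisomal acyl-CoA thioesterase, fell by 1.08. In the growth hormone and IGF axis, 2 of 18 genes rose (11.1%, against 8.33% of all genes) and 3 fell (16.7%, against 11.7%). Igfbp2, an IGF binding protein, fell by 1.48 (SE 0.33), Igfals, which holds circulating IGF-1 in its large complex, by 0.74 (SE 0.20) and Igfbp4 by 0.53, while the prolactin receptor Prlr rose by 0.86 (SE 0.24) and Jak2 by 0.39. With GC centring none rose and 2 fell, Igfbp2 and Igfbp4, and Igfals had -0.40 with an adjusted p of 0.187. Igf1 (0.02, SE 0.16) and the growth hormone receptor Ghr (-0.37, SE 0.20) did not pass. For Igfals, the age effect among males on Low Isoleucine was 1.09 and the difference from it -1.83 ± 0.31 (adjusted p 6.55e-05, and 0.0191 with GC centring).

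Genes of fatty acid oxidation and ketone body formation were lower at 24 months. All 36 genes of this list had negative fold changes in the authors' deposited table, 18 fell, and the median was -0.63. The list includes Ppara itself, the fasting-responsive nuclear receptor, at -0.95 (SE 0.23, adjusted p 0.00397). Large decreases included those of Acaa1b, a peroxisomal thiolase (-2.43, SE 0.55), Acot1, an acyl-CoA thioesterase of the cytosol (-2.28, SE 0.57), Ehhadh, the bifunctional enzyme of peroxisomes (-1.78, SE 0.41), and Acaa1a (-0.95, SE 0.17). Acaa1a and Acaa1b are near-identical. Among mitochondrial enzymes, Cpt1a, which admits long-chain fatty acids, fell by 0.52, Acads, the short-chain dehydrogenase, by 0.73, and Bdh1, which makes beta-hydroxybutyrate, by 1.33. The microsomal hydroxylases Cyp4a31 and Cyp4a10 fell by 2.25 and 1.28, and Fabp1, the liver fatty acid binding protein, by 1.26.

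With GC centring 15 of the 36 fell. Acads was lost, at -0.33 with an adjusted p of 0.15. In female controls 23 of 36 fell with age and none rose, with a median of -0.45, and the difference between males and females passed for none. Among males on Low Amino Acid the age median was -0.16. Among those on Low Isoleucine it was 0.31 and 1 gene rose, and Acads had 0.61 with an adjusted p of 0.026. The age effect on Control lay below that on Low Isoleucine for 13 of the 36 genes, such as Acaa1b (-2.89 ± 0.85 SE), Acot1 (-2.97 ± 0.88) and Ehhadh (-2.21 ± 0.64), with adjusted p of 0.0182, 0.0208 and 0.0165, and for 3 genes with GC centring. Acot1 and Ehhadh passed in both. Over all genes, the difference Control minus Low Isoleucine passed as lower for 7.02% and as higher for 3.62%.

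**Figure D4:**
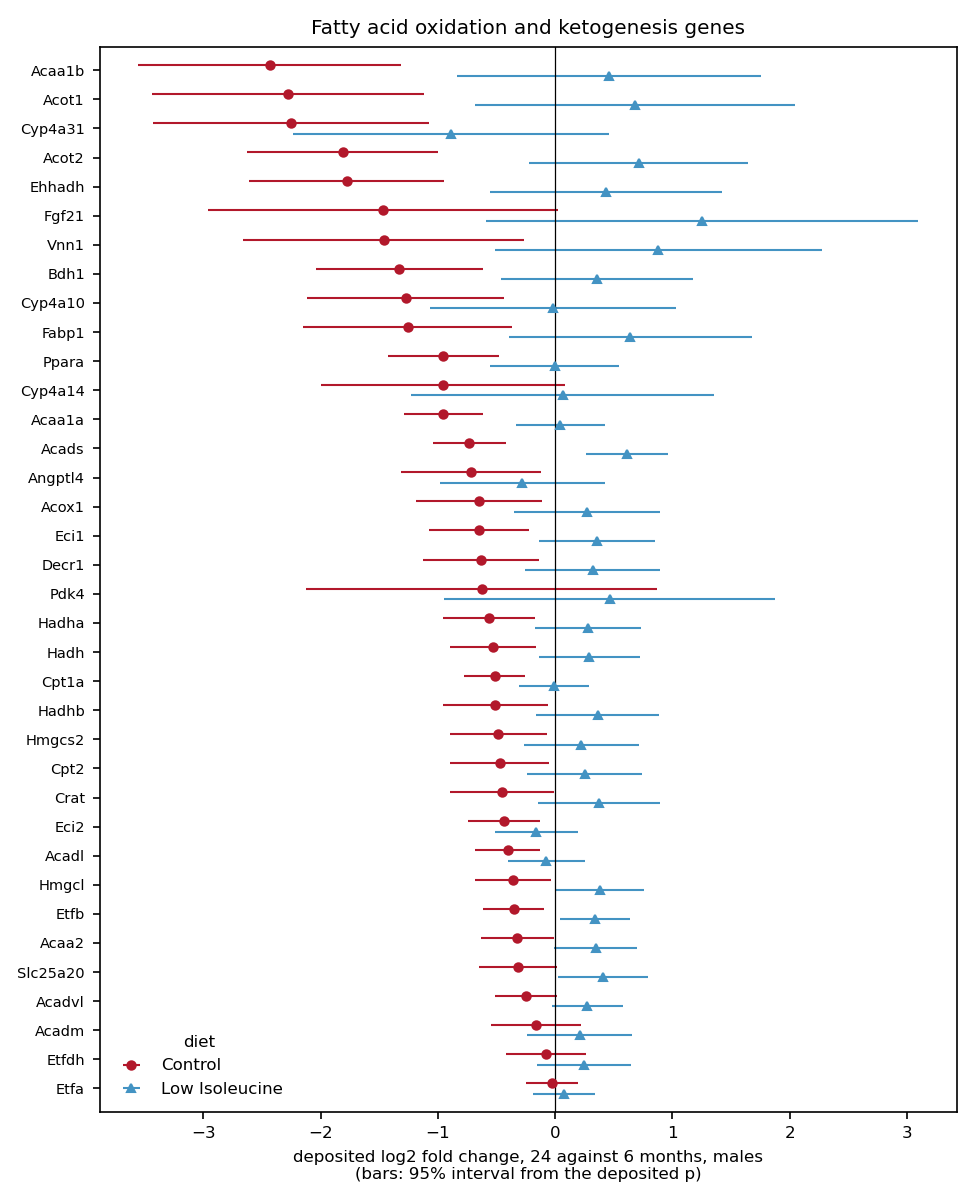
Deposited log2 fold change of 36 genes of fatty acid oxidation and ketogenesis, 24 against 6 months, in males on Control (circles) and on Low Isoleucine (triangles), with 95% intervals recovered from the deposited p. All 36 Control points lie below 0, from -2.43 for Acaa1b to -0.03, with a median of -0.63, and the median of the Low Isoleucine points is 0.31.

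Genes of lipid droplets and triglyceride storage were also lower in part. Of 25 genes 8 fell, none rose, and the median was -0.36. G0s2, an inhibitor of adipose triglyceride lipase, fell by 1.83 (SE 0.62), and Pnpla2, the gene of that lipase, by 0.75 (SE 0.16). Hsd17b11, a droplet protein, fell by 1.70 (SE 0.27, adjusted p 5.9e-05), Cidec, which fuses droplets, by 1.35, and Fitm2, needed for droplet budding, by 1.0 (SE 0.18). With GC centring 5 fell, G0s2 and Cidec not among them (adjusted p 0.0736 and 0.109). Of 24 fatty acid synthesis genes 6 fell and 2 rose. Those that fell included the desaturases Fads2 (-1.48, SE 0.29) and Fads1 (-0.67), the elongase Elovl6 (-0.90) and Mlxipl, which encodes the carbohydrate-responsive factor ChREBP (-0.98). Pnpla3 (1.07) and Acaca, acetyl-CoA carboxylase (0.30), rose, while Fasn, fatty acid synthase (0.05, SE 0.26), and Srebf1 (-0.55, SE 0.27) did not pass. With GC centring 4 fell and 2 rose, Acaca being lost. Among 28 cholesterol genes, Abcg5 and Abcg8, the subunits of the exporter that moves cholesterol into bile, fell by 0.60 and 0.61, and Scarb1, the HDL receptor, by 0.49. The other 25 did not pass, and the share lower was 10.7%, near the 11.7% of all genes.

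Of 48 genes of amino acid breakdown, 8 rose (16.7%, against 8.33% of all genes) and 4 fell (8.33%, against 11.7% of all genes). The list median was 0.11, and with GC centring 8 rose and none fell. Bhmt, which remethylates homocysteine with betaine, rose by 1.36 (SE 0.29), Gldc of the glycine cleavage system by 1.15 (SE 0.22), Arg1, the arginase of the urea cycle, by 1.03 (SE 0.23), Cth, which makes cysteine, by 0.95 (SE 0.23) and Cdo1, which oxidises it, by 0.63. Prodh2, a hydroxyproline dehydrogenase, fell by 0.76. The age effect of males exceeded that of females for 14 of the 48 genes and lay below it for none, where the shares over all genes tested were 3.67% above and 5.47% below. For Bhmt the difference was 1.94 ± 0.42 (SE, adjusted p 0.00166), for Cth 1.68 ± 0.35 and for Arg1 1.11 ± 0.32. With GC centring 8 of the 48 differed, Bhmt and Cth among them and Arg1 (adjusted p 0.0526) not. In female controls 14 of the 48 fell with age and 2 rose.

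Of 26 bile acid genes 4 rose (15.4%, against 8.33% of all genes) and 3 fell (11.5%, against 11.7%) in male controls. Slc10a2, the bile acid uptake carrier of bile duct cells and ileum, rose by 1.91 (SE 0.36, adjusted p 0.000407), Cyp2c70, which makes the muricholic acids of mice, by 1.14 (SE 0.35), Acox2 by 0.63 and Baat, which conjugates bile acids to taurine, by 0.59 (SE 0.09). Slco1a1, Abcc3 (-0.89) and the phospholipid exporter Abcb4 (-0.68) fell. Cyp7a1, which sets the rate at which bile acids are made, had 0.86 with an SE of 0.49 (adjusted p 0.21). In females 12 of the 26 fell with age and 2 rose, and the male effect exceeded the female effect for 8 genes and lay below it for none, including Baat (0.67 ± 0.15 SE, adjusted p 0.00342). With GC centring 7 differed. Of 38 cytochrome P450 genes of families 1 to 3, 2 rose (5.26%) and 6 fell (15.8%), near the shares over all genes (8.33% and 11.7%). The list median was -0.02. Those that fell included the centrilobular enzymes Cyp1a2 (-0.93, SE 0.18) and Cyp2e1 (-0.47, SE 0.13). With GC centring 1 rose and 4 fell. In female controls 19 of the 38 fell with age and 2 rose. The male effect exceeded the female effect for 5 P450 genes and lay below it for none, or exceeded it for 1 with GC centring.

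Among 34 targets of the oxidant-responsive factor NRF2 and glutathione genes 7 rose and 1 fell. Slc7a11, the cystine importer, rose by 3.44 (SE 0.83, adjusted p 0.00348), Nqo1, a quinone reductase, by 1.37 (SE 0.24), Hmox1, heme oxygenase, by 1.30 (SE 0.40), and the glutathione transferases Gstm2 by 1.41 and Gstt3 by 1.27, while Gstt2 fell by 1.08. The same counts, 7 and 1, were obtained with GC centring. For Slc7a11 the age effect on Low Isoleucine was -1.09 and the difference 4.53 ± 0.99 (SE, adjusted p 0.00161). Against the same controls at 6 months, Slc7a11 had 2.62 in males fed Low Amino Acid, and in those fed Low Isoleucine 4.19. Of 29 glucose genes 4 fell (13.8%, near the 11.7% of all genes) and none rose. Those that fell were glycogen synthase of liver, Gys2 (-1.63, SE 0.26), the pyruvate dehydrogenase kinase Pdk2 (-0.84, SE 0.11, adjusted p 8.73e-06), the fasting-responsive factor Creb3l3 (-0.72) and Pcx, pyruvate carboxylase (-0.36). With GC centring 3 fell and 1 rose, and Pcx (-0.09) was lost. Pdk2 also fell with age in female controls (-0.84) and among males on Low Isoleucine (-0.48, adjusted p 0.0262).

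Clock genes differed between the ages as well, although the hour of killing is not given in the labels used here. Of 20 clock genes 6 fell and 1 rose. The clock-controlled genes Usp2 (-1.56, SE 0.42), Dbp (-1.13, SE 0.41), Tef (-0.66) and Hlf (-0.49) and the repressors Per2 (-1.06, SE 0.31) and Cry2 (-0.57) fell, and Clock, which encodes the activator, rose by 0.69 (SE 0.18). Its partner Bmal1 had 1.70 with an SE of 0.63 and an adjusted p of 0.0504. With GC centring 5 fell and 1 rose, Dbp (-0.69) and Tef (-0.56) being lost. In female controls 11 of the 20 fell and 2 rose, and on Low Isoleucine 2 fell, Usp2 (-2.34) and Hlf (-0.52). None of the 20 differed in age effect between males and females or between Control and Low Isoleucine.

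Heat shock genes were lower at 24 months, with 6 of 16 falling and none rising, also after GC centring. Hspa1b and Hspa1a, near-identical genes of the inducible HSP70 chaperone, had -2.68 (SE 0.77) and -2.25 (SE 0.59). Hspb1 (-1.42), Hsph1 (-1.29), the HSP40 gene Dnajb1 (-0.71) and Hsf1, the transcription factor of this response (-0.43), fell too. In female controls Hspa1a and Hspa1b had 0.58 and 0.78, and the difference in age effect passed for Hspa1b (-3.46 ± 1.05 SE), Hspa1a (-2.83 ± 0.86) and the cochaperone gene Bag3 (-1.19), at adjusted p of 0.0249, 0.025 and 0.0072, but for none with GC centring. Against the same 6-month controls, Hspa1a and Hspa1b had -1.97 and -2.21 in males fed Low Amino Acid, and in those fed Low Isoleucine -1.32 and -1.78.

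Among 28 p53 target and senescence genes 3 rose and 3 fell (10.7% each, near the 8.33% and 11.7% of all genes). Cdkn1a, which encodes the cell cycle inhibitor p21, rose by 2.74 (SE 0.97, adjusted p 0.0428), Eda2r, a p53-induced receptor that rises with age in several tissues, by 1.53 (SE 0.43) and Ccng1, cyclin G1, by 0.48 (SE 0.11). Bbc3 (-0.75), Sesn2 (-0.68) and Trp53 itself (-0.32) fell, and with GC centring 5 rose and none fell. Cdkn1a rose by 2.73 in female controls and had -0.89 among males on Low Isoleucine, a difference of 3.63 ± 1.20 (SE, adjusted p 0.0394, and 0.0682 with GC centring). Cdkn2a, the senescence marker p16, is not listed in the male table. Of 38 integrated stress response genes 3 rose and 4 fell, of 25 endoplasmic reticulum chaperone genes 1 fell, of 34 cell cycle genes 1 rose and 1 fell, and of 17 immediate early genes 1 rose and 2 fell. The shares called in these lists were near or below those over all genes (8.33% higher, 11.7% lower). With GC centring none of these lists had a member that fell.

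The transcripts of the mitochondrial genome were lower at 24 months. Of 13 listed genes, which all encode parts of the respiratory chain or ATP synthase, 7 fell and none rose. Those that fell included ND2 (-0.91, SE 0.22), ND4 (-0.85) and ND5 (-0.82, SE 0.21) of complex I. With GC centring 8 fell. On Low Isoleucine 5 of the 13 fell with age and in female controls 7 fell. Of 75 nuclear genes of oxidative phosphorylation 12 fell and none rose, with a median of -0.14, and with GC centring 4 fell and 1 rose. Uqcrq of complex III fell by 0.79 (SE 0.19) and Cox5a of complex IV by 0.32 (SE 0.11). On Low Isoleucine 16 of the 75 rose with age, and the age effect on Control was lower than that on Low Isoleucine for 22 genes and higher for none (10 lower with GC centring), Uqcrq having -2.02 ± 0.32 (SE). Over all genes 3.01% rose with age on Low Isoleucine, and this difference passed as lower for 7.02% and as higher for 3.62%. Of 79 cytosolic ribosomal protein genes 23 rose and 2 fell, by small amounts such as 0.38 for Rps25 and 0.35 for Rps15a, against -0.84 for Rplp1 and -0.68 for Rplp2. With GC centring 24 rose and none fell, Rplp1 and Rplp2 being lost at adjusted p of 0.132 and 0.0947. On Low Isoleucine 32 of the 79 rose with age and none fell, with a median of 0.36, against 0.10 on Control. The age effect on Control was lower than that on Low Isoleucine for 20 of these genes and higher for none. With GC centring it was lower for 7 and higher for 2. In female controls 5 of the 79 rose with age and none fell. Small abundant genes of this kind have many pseudogene copies, which makes their counts uncertain.

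RNAs that usually lack a poly(A) tail, which poly(A) selection removes to a varying degree, moved with the groups. In the authors' deposited table, 9 of 14 such RNAs were lower at 24 months and none higher, with a median of -0.58. The RNase P RNA Rpph1 had -2.55 (SE 0.74), the histone genes H4c8 and H2ac19 had -1.34 (SE 0.28) and -1.28 (SE 0.33), and the RNase MRP RNA Rmrp had -0.77 (SE 0.27). With GC centring 3 of the 14 were lower, H4c8 among them, and Rpph1, H2ac19 and Rmrp were lost. In the comparisons with the same 6-month controls the list medians were -1.54 for Low Amino Acid and -1.81 for Low Isoleucine. For age it was 1.20 among males on Low Isoleucine, with 4 members higher, and 0.33 among female controls. The difference Control minus Low Isoleucine passed as lower for 10 of the 14, against 7.02% of all genes, and for 3 with GC centring. Control minus Low Amino Acid did so for 11, against 6.58% of all genes, and for 4 with GC centring. Males minus females passed as lower for 3, and for none with GC centring. The part of these RNAs in the other results was not tested.

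Of 39 collagen, fibrosis and stellate cell genes 3 rose and 3 fell (7.69% each, against 8.33% and 11.7% of all genes). Col15a1 (0.76), the membrane protease Mmp14 (0.60) and Pdgfra (0.54) rose. Col1a1, the main chain of type I collagen (-1.33, SE 0.42), Col4a2 (-0.78) and Col6a2 (-0.67) fell. With GC centring 2 rose, none fell, and Col1a1 had an adjusted p of 0.117. In females Col1a1 rose by 1.22, and the difference was -2.55 ± 0.58 (SE, adjusted p 0.00269, and 0.0398 with GC centring). Among 25 endothelial genes Pecam1 rose by 0.52 and 2 fell, neither of them with GC centring. Of 12 bile duct genes Krt23 (-3.27, SE 0.75) and Cdh1 (-1.25) fell. Both adult alpha globin genes, Hba-a1 and Hba-a2, fell (-1.20 and -1.21) out of 7 red cell genes, and both calls were lost with GC centring, at adjusted p of 0.0796 and 0.059. Of 23 oncofetal and liver tumour genes Ly6d rose by 1.93 (SE 0.51), while Afp (0.50, SE 0.26) and H19 (1.19, SE 0.78) did not pass. Of 12 hepatocyte markers 11 are listed, and of these Fgb alone passed. Alb, albumin, had -0.08 with an SE of 0.22. Of 18 pancreas and adipose genes 1 is listed.

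Several of the strongest single results lay outside these lists. The smallest p among protein-coding genes belonged to Acnat2, an acyl-CoA amino acid N-acyltransferase, which rose by 2.45 (SE 0.25, adjusted p 2.16e-07). It was followed among genes that rose by the transcription factor Dmrta1 (2.91, SE 0.35), Slc3a1, a subunit of a cystine and basic amino acid transporter (2.73, SE 0.34), Prkdc, the catalytic subunit of a DNA repair kinase (0.67, SE 0.09), and Pnrc2 (0.62, SE 0.08). Among genes that fell, the smallest p belonged to Eeig1 (-1.98, SE 0.22), Pdxk, the kinase that activates vitamin B6 (-1.50, SE 0.16), and Pitpnm2, a phosphatidylinositol transfer protein (-1.25, SE 0.14), with adjusted p of 3.45e-07, 3.45e-07 and 5.39e-07. These 8 genes were also called with GC centring. Dmrta1 rose too in female controls (2.07) and among males on Low Isoleucine (1.85, adjusted p 0.00508), whereas Acnat2 had 0.12 and -0.30 there and differed from both. Large increases were also seen for Adgrb3, an adhesion receptor of brain (4.31, SE 1.56), the Ras activator Rasgrf1 (4.09, SE 1.07), the sarcomere gene Myom3 (3.91, SE 0.84) and the thiamine transporter Slc19a3 (3.66, SE 0.64), and large decreases for Adam2 (-3.98, SE 0.66), a sperm surface protein, and Ccr3, the eosinophil chemokine receptor (-3.08, SE 1.12). Adgrb3 and Ccr3 were lost with GC centring, at adjusted p of 0.0699 and 0.0504.

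Olfactory receptor genes, which encode odour receptors of the nose, moved in runs of neighbours. The authors' deposited table lists 41, of which 13 rose and 4 fell. On chromosome 7, 9 neighbouring genes between 106711031 and 106846207 (GRCm38), the first Or2ag13 and the last Or2ag19, all rose, by 3.13 to 4.30. Their age fold changes were 2.29 to 4.0 among males on Low Isoleucine and 3.37 to 4.22 in female controls, where Or2ag19 has no value. On Low Isoleucine Or2ag13, Or2ag14-ps1 and Or2ag2b passed, at adjusted p of 0.0243, 0.0372 and 0.042, and the others of this run did not. In a second run on the same chromosome, 4 of 5 genes fell: Or13a17 (-3.04, SE 0.37), Or13a26 (-2.47), Or13s1-ps1 (-2.19) and Or13a25 (-2.09). Or13a18 at its edge had -0.55 and an adjusted p of 0.0911. On Low Isoleucine all 5 genes of this run fell, by -1.83 to -1.34. In female controls they fell as well, apart from Or13a18 (0.22), which did not pass. In a run of 3 receptor genes elsewhere on the chromosome, the fold changes in male controls were -0.12 to 0.14 and none passed. In this run Or51q1 (-1.41, adjusted p 0.0124) and Or51k1 (-0.94, adjusted p 0.00675) fell with age on Low Isoleucine. Or52h1 (-0.77, adjusted p 0.00906) fell in female controls. Reads from transcripts that span several of these genes and reads from each gene cannot be told apart here.

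**Figure D5:**
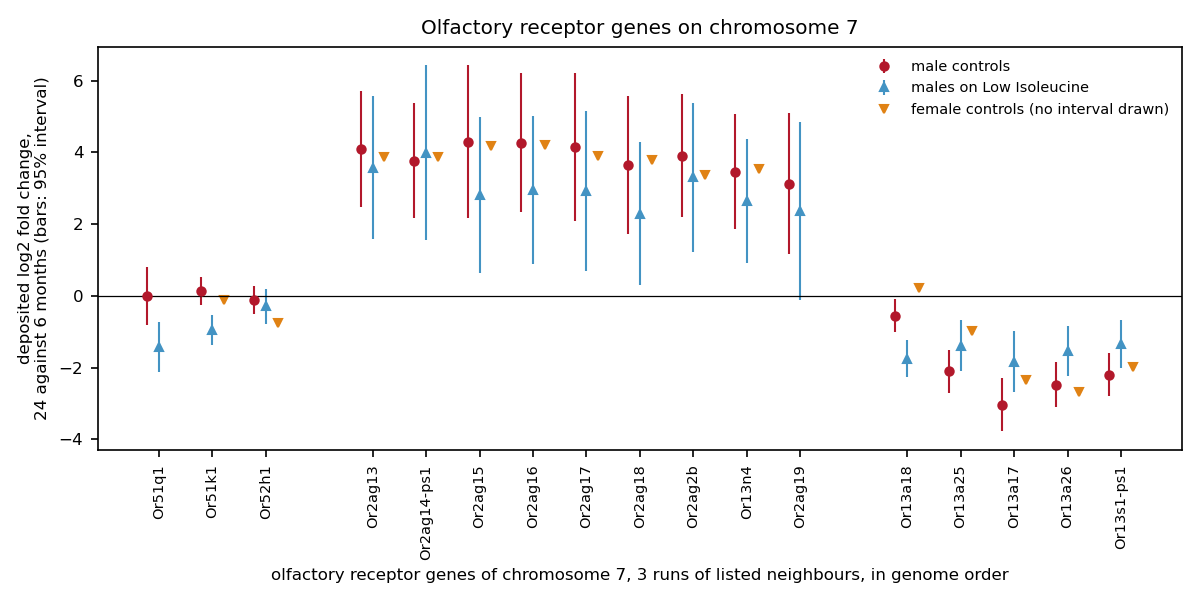
Deposited log2 fold change, 24 against 6 months, of olfactory receptor genes on chromosome 7 in genome order, in male controls (circles), males on Low Isoleucine (upward triangles) and female controls (downward triangles), with 95% intervals for the males. The 9 genes of the middle run lie between 3.13 and 4.30 in male controls, and the 5 genes of the right-hand run between -3.04 and -0.55.

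The 3 largest increases of the authors' deposited table were those of short predicted genes poor in G and C. Gm10800 had 8.41 (SE 1.11, adjusted p 5.96e-06), Gm10801 7.80 (SE 1.21) and Gm10718 5.97 (SE 1.18). In the same 6-month controls they were lower than on either restricted diet: against Control, Gm10800 had 10.88 in males fed Low Amino Acid, and in those fed Low Isoleucine 11.51. For age, Gm10800 had -2.55 among males on Low Isoleucine and -3.02 in female controls, both past the threshold, and so opposite in sign to the male controls. Gm10800 and Gm10801 lie side by side on chromosome 2, and whether their reads are unique was not tested.

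Set beside female controls, in which 2133 genes (12.4%) rose and 1911 (11.1%) fell with age in the authors' deposited table of that sex, the male age effect had the same sign for 73.2% of the 1435 genes higher in males that both tables list and for 66.0% of the 2034 genes lower in males. Of these genes, 27.8% and 25.6% were called in females in the same direction, and 32 and 71 genes in the opposite one. The 2 contrasts share no animals, and Pearson's r between them was 0.482 over 17023 genes, a description only, since genes are not independent. The difference itself passed for 625 genes higher (3.67%) and 932 genes lower (5.47%) in males than in females. With GC centring 225 were higher and 143 lower. The protein-coding genes with the smallest p in the positive direction included Acnat2 (2.32 ± 0.30 SE), Gstt3 (2.75 ± 0.43) and Abca6, an ABC transporter (0.91 ± 0.14), and in the negative direction Prrc2a (-1.54 ± 0.25), Rcc2 (-1.07 ± 0.18), Hip1r (-1.30 ± 0.22), Arf6 (-0.83 ± 0.14) and Rrbp1 (-0.90 ± 0.15). With GC centring the difference of Arf6 was -0.24 and was no longer called. Rrbp1 did not pass in males (-0.18) and had 0.72 in females.

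Among males on Low Isoleucine, 534 genes (3.01%) were higher and 723 (4.07%) lower at 24 months. Of the 1480 genes higher in male controls, 67.4% had the same sign there, 58 (3.92%) were called in the same direction and 21 in the opposite one. Of the 2071 genes lower in male controls, 49.0% had the same sign, 117 (5.65%) were called in the same direction and 96 in the opposite one. Pearson's r over 17757 genes was 0.105. The 2 groups of animals do not overlap, and the difference Control minus Low Isoleucine passed for 642 genes higher (3.62%) and 1247 lower (7.02%), or for 170 and 219 with GC centring. Besides Acnat2 (2.75 ± 0.39 SE), the protein-coding genes of smallest p in the positive direction were the predicted genes Gm10800, Gm10801, Gm10719 and Gm10720. In the negative direction they were Rnaseh2c (-1.91 ± 0.26), Grcc10 (-1.52 ± 0.23), Ftl1, the ferritin light chain (-1.48 ± 0.23), Atp9a (-1.30 ± 0.19) and Gemin7 (-1.11 ± 0.17), the last of which was lost with GC centring. The difference Control minus Low Amino Acid passed for 515 genes higher (2.9%) and 1169 lower (6.58%), or for 145 and 114 with GC centring, and the smallest p on its negative side belonged to Gemin7 (-1.02 ± 0.15, or -0.43 and no longer called with GC centring), Romo1 (-1.74 ± 0.26), Rnaseh2c (-1.52 ± 0.23), Mrpl53 (-1.50 ± 0.23) and Pigyl (-1.87 ± 0.29). The diet comparisons of males called 10 genes (Low Amino Acid) and 12 genes (Low Isoleucine) at 24 months, and 2902 and 3747 genes against the 6-month controls that also enter the age comparison.

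Of the remaining genes followed in all comparisons of the series, Lepr, the leptin receptor, fell by 1.82 (SE 0.60, adjusted p 0.0302). The hormone genes Fgf21 (-1.47, SE 0.74) and Gdf15 (-1.05, SE 0.45), the oestrogen receptor Esr1 (0.43, SE 0.21), Igf2 (-0.38, SE 0.34), the coactivator Ppargc1a (0.08, SE 0.30) and Asns, asparagine synthetase (0.31, SE 0.86), did not pass. The 95% intervals of Asns and Fgf21 span more than 1 log2 unit to either side, so differences of that size were not detectable there.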

How the data were processed

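RNA of whole liver was sequenced from stranded poly(A)-selected libraries over 2 lanes, per the labels' protocols. The submitters' processing notes name GRCm38.p5, R 3.4.3, edgeR and limma, with no roles. Neither the aligner nor the model is stated there, and the libraries that entered each comparison are not given in these sources. The authors' deposited tables hold, per gene and comparison, a log2 fold change, an unadjusted and an adjusted p-value (Benjamini-Hochberg), and a score, the F statistic of the gene. The gene table holds estimated counts, which the authors deposited without normalization. Of its 51912 lines, 17275 are filled under all columns, and the male columns could not be matched to genes, so the planned use was restricted to the female columns.

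Samples were grouped by sex, diet and age in their titles. Adjusted p under 0.05 was the threshold. SEs were recovered from each deposited p with 36.3 (males) and 39.6 (females) residual degrees of freedom, as the deposited F statistics imply. Differences between contrasts without shared animals were tested over all genes with Satterthwaite degrees of freedom and Benjamini-Hochberg adjustment. Contrasts within males share a residual variance estimate, so the SEs in their differences are not independent. Satterthwaite degrees of freedom treat them as if they were. The age effect on Low Amino Acid was summed from 3 deposited contrasts. The scripts were tested on simulated data. Of the listed genes 17714 matched GENCODE M21 (GRCm38), which gave positions, and 17699 had GC content of the longest transcript. Centring on GC used 20 bins. An edgeR 4.0.16 quasi-likelihood fit of rounded female counts (R 4.3.3) served as an alternative. Python 3.11.15, numpy 2.4.6, pandas 2.3.3 and scipy 1.17.1 were used.

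The members and the 40 gene lists were chosen with earlier results of these data known. Named genes were the 10 largest changes and 5 smallest p in each direction among called protein-coding genes with an established symbol, the members of each list with the smallest p (up to 4, more where a list is described in full), the 18 followed genes, and the 5 smallest p per direction of each difference. Predicted genes, olfactory receptors beyond that rule and list medians are named as descriptions chosen after their values were seen. Several libraries of a group share a number in their titles, and the labels do not say whether it marks a cage or litter. Whether these animals are independent, and whether the deposited p-values allow for it, is therefore not known. The p-values rest on a residual variance shared by the male comparisons, not on the spread of the male controls alone.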

Additional observations from a re-analysis of the deposited data

Results flagged for a closer look

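The age effect of male controls differed from that of other groups for many genes. It differed from that of female controls for 1557 genes, from that of males on Low Isoleucine for 1889 and from that of males on Low Amino Acid for 1684, each at an adjusted p under 0.05 over all genes tested. All 3 use the age effect of the male controls, so they are not independent of each other. Values below are differences in log2 fold change, 24 against 6 months.

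Against female controls, the difference was 11.43 for Gm10800, 10.81 for Gm10801, 2.75 for Gstt3, 2.32 for Acnat2 and 0.91 for Abca6. In the other direction it was -1.54 for Prrc2a, -1.30 for Hip1r, -1.07 for Rcc2, -0.90 for Rrbp1 and -0.83 for Arf6.

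Control minus Low Isoleucine gave 10.97 for Gm10800, 10.75 for Gm10801, 7.08 for Gm10719, 6.32 for Gm10720 and 2.75 for Acnat2. The negative differences were -1.91 for Rnaseh2c, -1.52 for Grcc10, -1.48 for Ftl1, -1.30 for Atp9a and -1.11 for Gemin7.

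Control minus Low Amino Acid gave 11.99 for Gm10800, 11.54 for Gm10801, 8.53 for ENSMUSG00000095280, 7.44 for Gm10717 and 6.95 for Gm10719. The negative differences were -1.87 for Pigyl, -1.74 for Romo1, -1.52 for Rnaseh2c, -1.50 for Mrpl53 and -1.02 for Gemin7. The part of the 6-month male controls, which enter each of these differences, was not tested.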

How the results depend on the processing

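No paired analysis was possible because male values exist only as the authors' contrasts and no label pairs animals across the ages. Titles carry a number and a letter, and several libraries of a group share the number. The labels do not say whether it marks a cage or litter, so a shared block could not be tested. Without per-animal values no male library could be left out, and the weight of any single animal is unknown. The count of 3551 genes became 1604 at an adjusted p under 0.01, 697 with an absolute log2 fold change of at least 1, and 2197 with GC centring. It was 4914 at 0.10, 3493 when adjusted over genes in both tables and 3320 over protein-coding genes. The 1557 differences from females became 2467 at 0.10 and 368 with GC centring, when the share higher in males moved to 61.1%, against 40.1% as deposited. Normal approximation gave 1398. On the 12103 genes of the female edgeR fit, that fit gave 1504, against 1322 with the deposited female estimate. For Low Isoleucine GC centring left 389 differences, 43.7% of them higher against 34.0% as deposited, and for Low Amino Acid 259, with 56.0% higher against 30.6%. Contrasts within males share a residual variance estimate. With its residual degrees of freedom in place of Satterthwaite's, 1889 differences from Low Isoleucine became 1591, and 1684 from Low Amino Acid became 1453. Calls close to the threshold, such as that of Fgg, were not followed under this choice. GC centring and residual degrees of freedom were chosen after seeing the data, and the cause of the shifts was not tested. Of 196 named genes 159 kept direction and call with GC centring, 33 were lost, 2 were gained, and Igf1 (-0.14) and Ppargc1a (-0.0487) changed sign without passing. Of the list genes, 250 were called as deposited and 196 with GC centring.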
